A study of Arabidopsis with 8 samples.

Results

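The gamma-type phosphatidylinositol 4-kinases (PI4Ks) of Arabidopsis thaliana form a family of 8 genes, and all 8 were among the 25397 genes listed in at least 1 of the 8 RNA libraries. PI4KG3 (AT5G24240) was chosen from its higher mutant than Col-0 values in root and in shoot, so these differences are given here as a description with no test. The other 7 genes were taken because they belong to the same family: PI4KG1 (AT2G40850), PI4KG4 (AT2G46500), PI4KG5 (AT1G26270), PI4KG6 (AT1G13640), PI4KG7 (AT2G03890), and AT1G64460 and AT3G56600, which are called here by locus. The libraries came from root and from the shoot part of seedlings 5 days old. There were 2 libraries each from root of the saur41/40/71/72 quadruple mutant, Col-0 root, shoot of the mutant and Col-0 shoot. The mutant carries changes in 4 genes of the SAUR41 subfamily, which encode small auxin-induced proteins linked to cell expansion, and Col-0 is the wild type. Which alleles it carries is not stated in the labels. The labels do not tell whether replicates were grown separately, so p-values measure only the spread between these libraries, which may be technical.

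Phosphatidylinositol 4-kinases phosphorylate the inositol ring of a membrane lipid to make phosphatidylinositol 4-phosphate, a marker of the Golgi and plasma membrane and the precursor of further signalling lipids. In plants the alpha and beta types are thought to make most of this lipid. The gamma type is the largest class in number, several of its members carry ubiquitin-like domains ahead of the kinase domain, and for PI4KG4 and PI4KG7 protein kinase activity has been described. Gamma-type genes have been studied for roles in stress responses, flowering time and leaf margin growth.

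Values are FPKM as deposited, that is fragments scaled by gene length and by library total, so levels can be compared between genes. PI4KG3 was at 38.3 and 38.2 FPKM in mutant root (mean 38.2 ± 0.0756, SD, n = 2), against 2.23 and 1.36 FPKM in Col-0 root (1.79 ± 0.618, SD, n = 2). In shoot it was at 11.8 and 12.4 FPKM in the mutant (12.1 ± 0.468, SD, n = 2), against 0.0650 and 0.0445 FPKM in Col-0 (0.0547 ± 0.0145, SD, n = 2). Mutant and Col-0 libraries did not overlap in either tissue, and even the lower mutant shoot library lay above both Col-0 root libraries. The ratio of the mutant to the Col-0 mean was 21.3 in root and 221 in shoot, and the shoot ratio rests on Col-0 values close to 0.

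On the log2(FPKM + 1) scale, which understates the change of a gene at a low level, PI4KG3 was 3.83 higher in mutant than in Col-0 root (SE 0.18) and 3.63 higher in mutant than in Col-0 shoot (SE 0.18). The root difference minus the shoot difference was 0.20 (SE 0.25), and with a pseudocount of 0.1 in place of 1 it was -1.92. Which tissue showed the larger PI4KG3 difference therefore turned with the pseudocount, since the Col-0 shoot values lie far below 1 FPKM. These are libraries of bulk tissue, in which fewer cells of a type and less RNA per cell cannot be told apart.

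**Figure D1:**
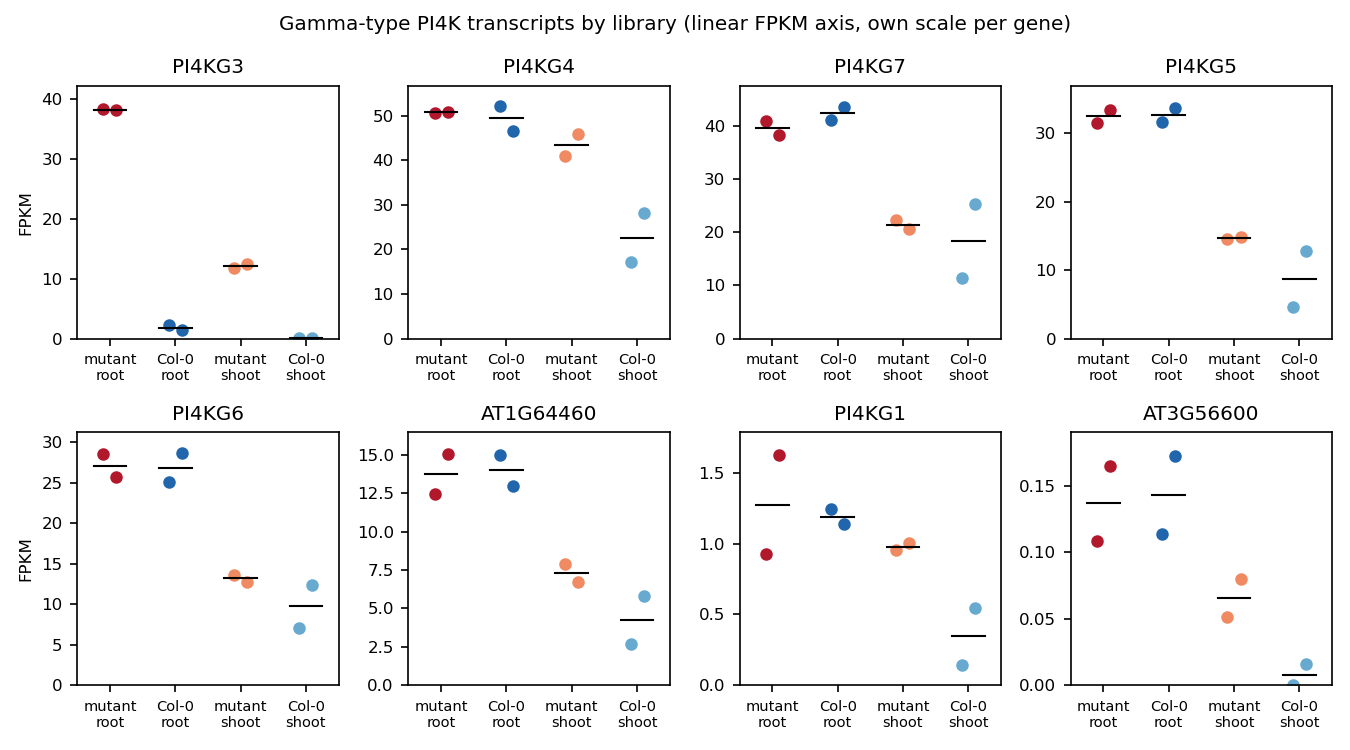
FPKM of each of the 8 gamma-type PI4K genes (linear axis, own scale per gene) in the 4 groups, with 1 point per library and a bar at the mean of 2. PI4KG3 lies at 38.3 and 38.2 in mutant root against 2.23 and 1.36 in Col-0 root, while the root points of its relatives lie at like heights in mutant and Col-0.

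PI4KG3 stood higher in the order of the family in the mutant than in Col-0. By mean level it ranked 3 of 8 in mutant root, against 6 of 8 in Col-0 root, and 5 of 8 in mutant shoot, against 7 of 8 in Col-0 shoot. It supplied 18.8% of the summed FPKM of the 8 genes in both mutant root libraries, against 1.32% and 0.805% in Col-0 root. In shoot its share was 10.5% and 10.9% in the mutant, against 0.151% and 0.0523% in Col-0. The sum of the 7 relatives was 165 and 165 FPKM in mutant root, against 167 and 167 FPKM in Col-0 root. The root sums of the relatives were thus nearly equal in the 2 genotypes, while PI4KG3 differed 21.3-fold. In shoot the relatives summed to 100.4 and 102 FPKM in the mutant, against 43.0 and 85.1 FPKM in Col-0, with Col-0 shoot replicate 1 far below the other libraries of its tissue.

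**Figure D2:**
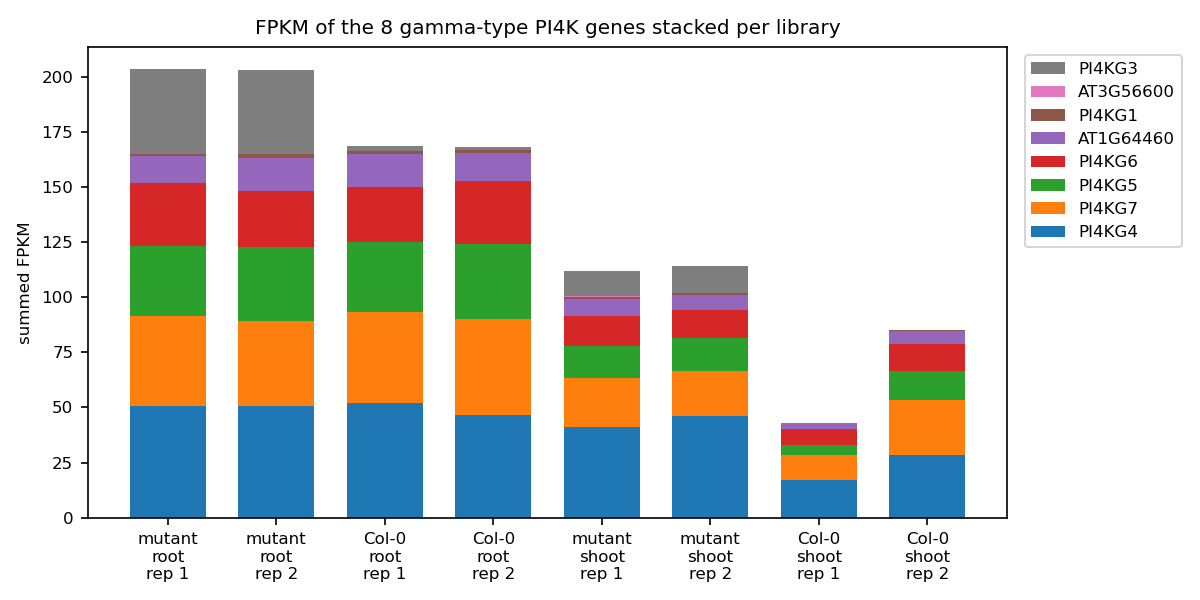
Summed FPKM of the 8 genes in each library (linear axis from 0), stacked by gene. The grey PI4KG3 segment is 18.8% of the bar in both mutant root libraries and 10.5% and 10.9% in mutant shoot, against at most 1.32% in Col-0, and the Col-0 shoot replicate 1 bar is the shortest.

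In both root groups and in mutant shoot, PI4KG4 stood highest, PI4KG7 second and AT3G56600 last, and no 2 neighbours in the order had overlapping values. Without PI4KG3, the other 7 kept 1 order in these 3 groups: PI4KG4, PI4KG7, PI4KG5, PI4KG6, AT1G64460, PI4KG1 and AT3G56600. In Col-0 shoot the first 5, PI4KG4, PI4KG7, PI4KG6, PI4KG5 and AT1G64460, each overlapped with the next over the 2 libraries, since all 5 were lower in replicate 1 than in replicate 2. Within each Col-0 shoot library the order of the 5 was the same, except that PI4KG6 stood above PI4KG5 in replicate 1 and below it in replicate 2. Below them PI4KG1, PI4KG3 and AT3G56600 were separate.

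Each library listed 21355 to 22858 genes. Read numbers are unknown here. Relative depth within a tissue was taken as the most frequent ratio of FPKM among low genes, with Col-0 replicate 1 set to 1. It was between 0.872 and 1.22. Outside that reference the most frequent ratio held only 21 to 53 of 2886 to 3820 low genes, so these depths are uncertain. Col-0 shoot replicate 1 stood apart: its values lay below the shoot mean most in genes with long loci (Spearman rho -0.59 between a gene's deviation and its span, against 0.27 in Col-0 shoot replicate 2, and 0.52 and 0.48 in mutant shoot). That mean includes replicate 1, so a trend in replicate 1 moves the rho of the other shoot libraries the opposite way. The median gene was 0.31 higher in mutant than in Col-0 shoot on the log2 scale, and all shoot differences of the relatives are to be read against that. The PI4KG3 difference in shoot was 3.65 without this library, against 3.63 with it. The 11 root markers, such as COBL9 and CASP1, summed to 369 and 344 FPKM in mutant root and 341 and 304 FPKM in Col-0 root, against 3.43 and 3.85 FPKM in mutant shoot and 6.74 and 3.01 FPKM in Col-0 shoot. The 7 photosynthetic markers summed to 61916 and 55628 FPKM in mutant shoot and 73410 and 72313 FPKM in Col-0 shoot, against 107 and 109 FPKM in mutant root and 112 and 111 FPKM in Col-0 root, and 1 of them, LHCB1.3, was not listed in Col-0 shoot replicate 1. Of the mutated genes, SAUR72 was at 16.9 and 16.3 FPKM in mutant root, against 23.4 and 31.6 FPKM in Col-0 root, and SAUR41 at 7.75 and 7.10 FPKM in mutant root, against 7.98 and 7.15 FPKM in Col-0 root (overlapping). In shoot SAUR72 was at 4.18 and 3.96 FPKM in the mutant, against 9.41 and 7.57 FPKM in Col-0, and SAUR71 at 3.28 and 3.02 FPKM in the mutant, against 7.91 and 5.22 FPKM in Col-0. SAUR40 was at most at 0.0730 FPKM in any mutant library and at most at 0.0990 FPKM in any Col-0 library. SAUR41, SAUR71 and SAUR72 were thus still detected in the mutant, and FPKM per gene does not tell whether the transcripts are intact.

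Differences were tested with limma over 19985 genes with a mean of at least 1 FPKM in root or in shoot, and a gene is called where the Benjamini-Hochberg adjusted p is under 0.05. Of the kinases, 7 of 8 passed the filter and AT3G56600 did not. PI4KG3 is left out of every count of mutant against Col-0, which leaves 6 tested relatives.

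In root the relatives did not differ detectably between the genotypes. PI4KG4 was at 50.6 and 50.9 FPKM in mutant root, against 52.2 and 46.6 FPKM in Col-0 root. PI4KG5 was at 31.6 and 33.4 FPKM in mutant root, against 31.7 and 33.7 FPKM in Col-0 root. PI4KG6 was at 28.5 and 25.7 FPKM in mutant root, against 25.1 and 28.6 FPKM in Col-0 root. In all 3 genes the mutant and Col-0 values overlapped. PI4KG7 was at 41.0 and 38.4 FPKM in mutant root, against 41.3 and 43.7 FPKM in Col-0 root, so that both mutant libraries lay just below both Col-0 libraries. Such a pattern was seen in 22.9% of all tested genes. AT1G64460 was at 12.4 and 15.1 FPKM in mutant root, against 15.0 and 13.0 FPKM in Col-0 root. PI4KG1 was at 0.926 and 1.63 FPKM in mutant root, against 1.24 and 1.14 FPKM in Col-0 root. AT3G56600, which was not tested, was at 0.109 and 0.165 FPKM in mutant root, against 0.114 and 0.173 FPKM in Col-0 root. In these 3 genes too the groups overlapped.

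Of the 6 tested relatives 0 were called in root (limma, adjusted p = 1 for each), and 0 had an unadjusted p under 0.05. Over all genes 0.01% were called, 2 genes of 19985, and 514 had an unadjusted p under 0.05. The log2 differences of the 6 ran between -0.096 for PI4KG7 (SE 0.32) and 0.039 for PI4KG4 (SE 0.22), with a median of 0.003, against -0.0049 for all genes. With 2 libraries a group and standard errors of 0.19 to 0.37, differences of this size were not detectable in root.

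In shoot every tested relative had a higher mean in the mutant than in Col-0, as 75.6% of all genes did on the log2 scale, but none passed the test, and the size of each difference depended on Col-0 shoot replicate 1. PI4KG4, named as a ubiquitin-like domain kinase, was at 41.1 and 45.9 FPKM in mutant shoot, against 17.1 and 28.2 FPKM in Col-0 shoot. The lower mutant library lay above the higher Col-0 library. The log2 difference was 0.95 (SE 0.22, adjusted p = 0.0681), or 0.64 above the median of all genes. Leaving out Col-0 shoot replicate 1 gave 0.61 (SE 0.10, adjusted p = 0.00536). The difference was 0.37 (SE 0.10, adjusted p = 0.0403) where the shoot libraries were also rescaled to a common median ratio, and 0.43 (adjusted p = 0.032) where the trend with gene span was removed instead. In these 3 fits the single Col-0 shoot library is assumed to vary as the other groups do.

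PI4KG7, the other member named as a ubiquitin-like domain kinase, was at 22.3 and 20.7 FPKM in mutant shoot, against 11.4 and 25.3 FPKM in Col-0 shoot. The mutant values lay between the Col-0 values. Its log2 difference was 0.31 with all libraries (SE 0.32, adjusted p = 0.485), equal to the median of all genes. It was -0.23 when Col-0 shoot replicate 1 was left out (SE 0.092, adjusted p = 0.0986), and with rescaling or with removal of the span trend as well it was -0.46 (adjusted p = 0.0185) or -0.44 (adjusted p = 0.024). PI4KG4 and PI4KG7 thus had differences of opposite sign in these 3 fits. PI4KG4 was 1.84 and 2.22 times PI4KG7 in mutant shoot, against 1.50 and 1.11 times in Col-0 shoot, and 1.23 and 1.33 times in mutant root, against 1.26 and 1.07 times in Col-0 root. This ratio within a library, which was looked at after the values were seen, was higher in both mutant shoot libraries than in the other 6.

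PI4KG5, reported to act with the transcription factor NAC078 in leaf margin growth, was at 14.5 and 14.8 FPKM in mutant shoot, against 4.64 and 12.8 FPKM in Col-0 shoot. The log2 difference was 0.82 (SE 0.37, adjusted p = 0.147), and 0.18 (adjusted p = 0.175) without Col-0 shoot replicate 1. PI4KG6 was at 13.6 and 12.7 FPKM in mutant shoot, against 7.07 and 12.4 FPKM in Col-0 shoot. Its difference was 0.45 (SE 0.24, adjusted p = 0.199), and 0.085 (adjusted p = 0.625) without that library. For both genes the mutant values sat just above Col-0 shoot replicate 2, and most of the difference came from replicate 1.

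AT1G64460 was at 7.89 and 6.74 FPKM in mutant shoot, against 2.68 and 5.82 FPKM in Col-0 shoot. The log2 difference was 0.73 (SE 0.29, adjusted p = 0.121), and 0.28 (adjusted p = 0.186) without Col-0 shoot replicate 1. PI4KG1, the lowest of the tested kinases in root, was at 0.953 and 1.00 FPKM in mutant shoot, against 0.144 and 0.543 FPKM in Col-0 shoot. Its difference was 0.57 (SE 0.19, adjusted p = 0.0965), and 0.36 (adjusted p = 0.196) without that library. Mutant and Col-0 shoot values did not overlap in either gene. AT3G56600 was at 0.0513 and 0.0800 FPKM in mutant shoot, while in Col-0 shoot it was not listed in replicate 1 and at 0.0155 FPKM in replicate 2.

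Of the 6 tested relatives 0 were called in shoot (limma), against 1.02% of all genes (0.961% higher and 0.06% lower). An unadjusted p under 0.05 was found for 3 of 6, against 38.7% of all genes (7738). In 5 of 6 both mutant libraries lay above both Col-0 libraries, as they did in 56.8% of all tested genes. The median difference was 0.65, against 0.31 over all genes. Without Col-0 shoot replicate 1, PI4KG4 alone of the 6 was called, at a background of 23.8% of all genes called higher and 2.31% lower. With rescaling as well, PI4KG4 was called higher (6.65% of all genes) and PI4KG7 lower (6.83%). With the span trend removed in place of rescaling, PI4KG4 was again called higher (6.37%) and PI4KG7 lower (4.1%). Without Col-0 shoot replicate 2 instead, 6 of 6 were called higher, as were 55.5% of all genes.

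**Figure D3:**
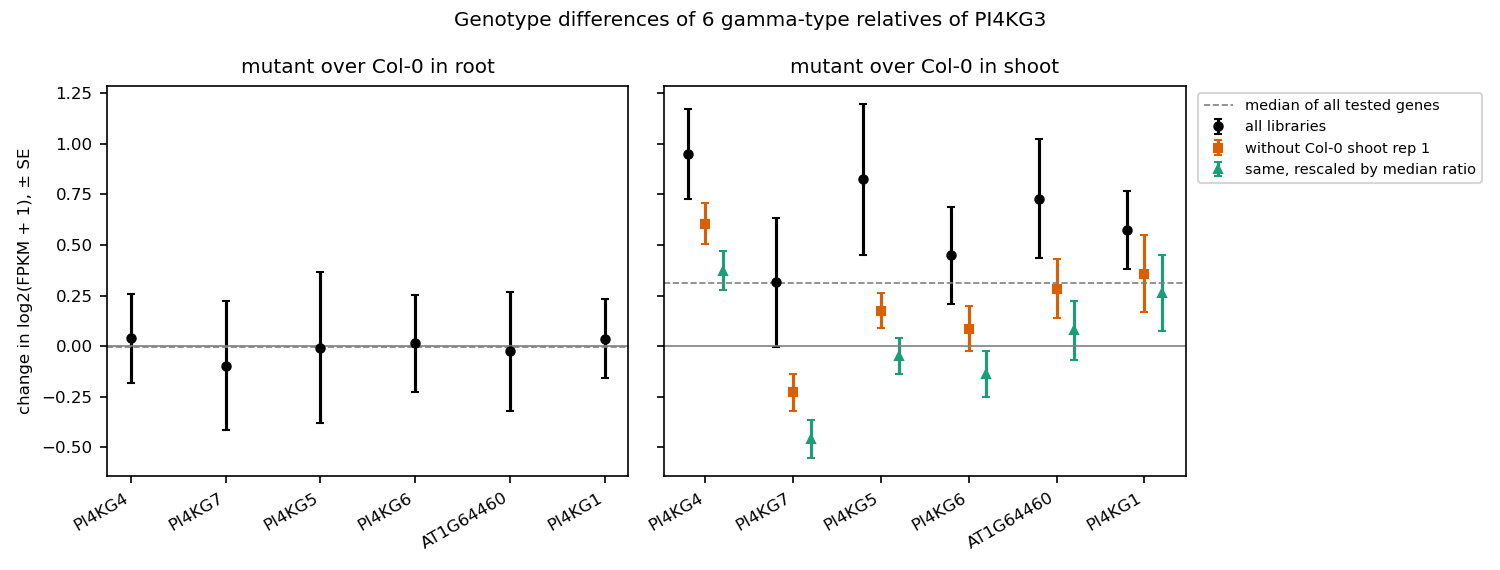
Mutant minus Col-0 difference in log2(FPKM + 1) with its standard error for the 6 tested relatives of PI4KG3, in root (left) and shoot (right). In root all lie within 0.10 of 0, while in shoot they lie between 0.31 and 0.95 with all libraries (black) and drop without Col-0 shoot replicate 1 (orange) and after median-ratio rescaling (green); the dashed line is the median of all tested genes.

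The root difference minus the shoot difference was negative in all 6 relatives, between -0.91 for PI4KG4 (SE 0.31, adjusted p = 0.293) and -0.41 for PI4KG7, with a median of -0.65 against -0.34 over all genes. Of the 6, 0 were called (limma, 0% of all genes called, with 3094 genes at an unadjusted p under 0.05), and 1 had an unadjusted p under 0.05. PI4KG4 was called without Col-0 shoot replicate 1 (difference -0.57, adjusted p = 0.0323; 9.66% of all genes called lower), and 6 of 6 were without Col-0 shoot replicate 2 (51.5%).

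In Col-0, 7 of 7 tested kinases, PI4KG3 included, were higher in root than in shoot (limma, 72.1% of all genes called higher in root). PI4KG3 was chosen on values of these same groups. PI4KG1 passed the filter only through root, where it is higher (mean 1.23 FPKM in root and 0.661 FPKM in shoot, both genotypes). Its place in the count is thus partly set by the filter. Root minus shoot log2 differences in Col-0 ran between 0.72 for PI4KG1 (SE 0.19, adjusted p = 0.0103) and 1.93 for PI4KG5 (SE 0.37, adjusted p = 0.00222), with a median of 1.39 against 1.23 over all genes. These differences use the same Col-0 shoot libraries as the shoot comparison of the genotypes. With Col-0 shoot replicate 1 left out, 7 of 7 were still called (72.3% of all genes), and the PI4KG5 difference was 1.28. PI4KG1 was lost without Col-0 root replicate 1 (adjusted p = 0.0512).

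In the mutant, 5 of 7, PI4KG3 included, were called higher in root than in shoot, against 58.7% of all genes. The median difference of the 7 was 0.86, against 0.81 over all genes. PI4KG7 and AT1G64460 lay only 0.044 and 0.012 above that all-gene median. PI4KG3 itself differed by 1.58 (SE 0.18, adjusted p = 0.00016), and by 1.39 in Col-0 (SE 0.18, adjusted p = 0.000269). It was chosen on its mutant against Col-0 values in these same libraries, so these p-values are not independent of that choice. Its mean level in root was 3.16 times that in shoot in the mutant, against 32.8 times in Col-0. PI4KG6 differed by 0.99 (SE 0.24, adjusted p = 0.00777), PI4KG5 by 1.10 (adjusted p = 0.0307), PI4KG7 by 0.86 (adjusted p = 0.0424) and AT1G64460 by 0.82 (adjusted p = 0.0367). PI4KG4, at 50.6 and 50.9 FPKM in mutant root and 41.1 and 45.9 FPKM in mutant shoot, had a difference of 0.22 (SE 0.22, adjusted p = 0.387), against 1.13 in Col-0 (adjusted p = 0.00235). PI4KG1 was at 0.926 and 1.63 FPKM in mutant root, on either side of its mutant shoot values, with a difference of 0.19 (adjusted p = 0.405).

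The mutant tissue calls of PI4KG5, PI4KG7 and AT1G64460 were lost without any 1 of the root libraries or of the mutant shoot libraries. PI4KG6 was lost without mutant root replicate 1 (adjusted p = 0.0532). PI4KG4 was called without either Col-0 shoot library (adjusted p = 0.03 without replicate 1 and 0.0311 without replicate 2).

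In the deposited tables PI4KG3 has the merged locus chromosome 5, 8228892 to 8234652 (TAIR10), which it shares with AT5G24230 and AT5G24250. The 3 genes have FPKM values of their own. AT5G24230 was at 14.8 and 12.8 FPKM in mutant root, against 15.0 and 14.0 FPKM in Col-0 root, and at 0.146 and 0.101 FPKM in mutant shoot, against 0.196 and 0.0285 FPKM in Col-0 shoot. AT5G24250 was at 0.0627 FPKM in mutant root replicate 1 and 0.169 FPKM in mutant shoot replicate 1 and was not listed in the other 6 libraries. AT5G24230 did not show the difference seen for PI4KG3, and AT5G24250 lay too near 0 to tell. How fragments were divided among overlapping genes, and whether strand was used, is not stated.

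The nearest listed genes on either side of the merged locus did not show a difference like that of PI4KG3 either. AT5G24220 was at 0.717 and 0.430 FPKM in mutant root, against 0.558 and 0.841 FPKM in Col-0 root. AT5G24260 was at 17.3 and 17.5 FPKM in mutant root, against 17.3 and 18.6 FPKM in Col-0 root, and at 11.9 and 11.9 FPKM in mutant shoot, against 6.78 and 11.7 FPKM in Col-0 shoot. AT5G24270 (CBL4, also known as SOS3, a calcium sensor of salt tolerance) was at 18.9 and 18.3 FPKM in mutant root, against 22.6 and 18.7 FPKM in Col-0 root. Of the 6 neighbours tested, 0 were called in root or in shoot, where 0.01% and 1.02% of all genes were called. The smallest adjusted p in shoot was that of AT5G24290 (MEB2), 0.0561, at 1.62 and 2.06 FPKM in mutant shoot, against 0.311 and 0.625 FPKM in Col-0 shoot. AT5G24205, not tested, was higher in the mutant in both tissues at values near 0. It was at 0.0904 and 0.238 FPKM in mutant root, against 0.0479 FPKM in Col-0 root replicate 1 and not listed in replicate 2. In mutant shoot it was at 0.243 and 0.365 FPKM, and it was not listed in Col-0 shoot.

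**Figure D4:**
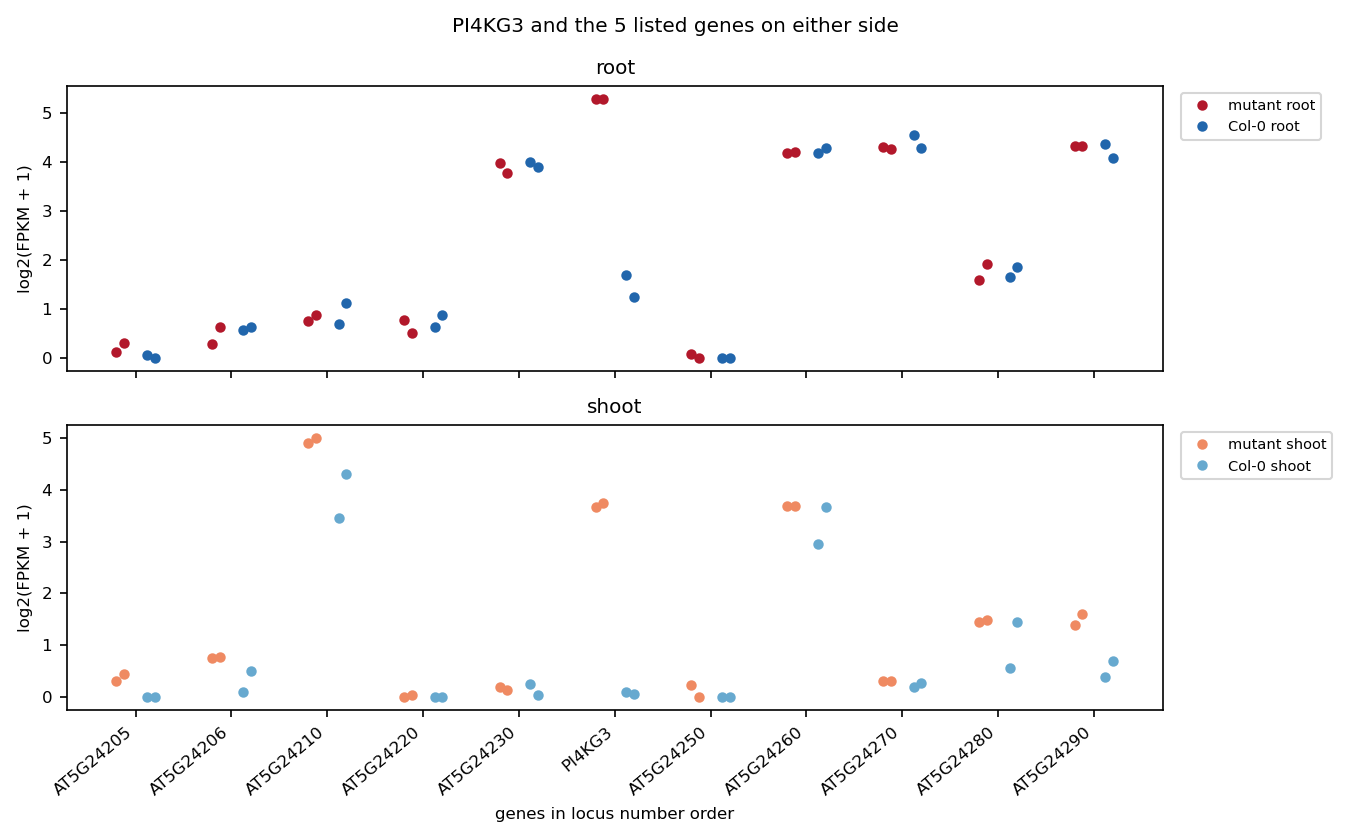
Level in log2(FPKM + 1) of PI4KG3 and the 5 listed genes on either side of it on chromosome 5, in locus number order, in root (top) and shoot (bottom), with 1 point per library. The gap between mutant and Col-0 points at PI4KG3, 3.83 in root and 3.63 in shoot, has no counterpart of like size at the other 10 genes, of which AT5G24210 has the widest gap among those tested (1.06, in shoot).

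The relatives lie on 3 chromosomes (TAIR10). PI4KG7 is at chromosome 2, 1185522 to 1188545, PI4KG1 at chromosome 2, 17051123 to 17053292, and PI4KG4 at chromosome 2, 19086561 to 19089027. PI4KG6 is at chromosome 1, 4677027 to 4679812, PI4KG5 at chromosome 1, 9089524 to 9092457, and AT1G64460 at chromosome 1, 23943499 to 23944680, while AT3G56600 is at chromosome 3, 20968444 to 20970913. None of these 7 shares its locus with another gene in the tables. How fragments that match several members of the family were counted is not stated either. AT1G64460 is followed at once by AT1G64470 (chromosome 1, 23944722 to 23945772), which was named after its values were seen. AT1G64470 was at 16.4 and 19.5 FPKM in mutant root, against 20.1 and 20.7 FPKM in Col-0 root, and at 8.29 and 8.67 FPKM in mutant shoot, against 3.26 and 6.38 FPKM in Col-0 shoot. The RefSeq table has no entry of its own for AT1G64470, and it gives AT1G64460 a gene length of 2327 bases, against 1182 in the deposited locus.

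The 5 tested genes most like PI4KG3 were ranked by Pearson r over the 8 libraries on log2(FPKM + 1), a measure in which the contrast that chose PI4KG3 takes part. They were AT2G37540 (r = 0.982), HEI10 (0.982), MAF5 (0.961), MAF4 (0.954) and NADP-ME3 (0.913). HEI10, a meiotic crossover factor, was at 9.95 and 10.5 FPKM in mutant root, against 1.86 and 2.07 FPKM in Col-0 root, and at 3.75 and 4.09 FPKM in mutant shoot, against 0.443 and 0.316 FPKM in Col-0 shoot. Like PI4KG3 it was high in the mutant, and higher in root than in shoot within each genotype, at a lower level. With a pseudocount of 0.1, NADP-ME3 dropped to rank 64 (r = 0.851), and after rescaling MAF4 dropped to rank 7 (r = 0.903). Within its own family PI4KG3 had r between 0.397 with PI4KG7 and 0.687 with PI4KG4, which ranked 537 among all tested genes.

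**Figure D5:**
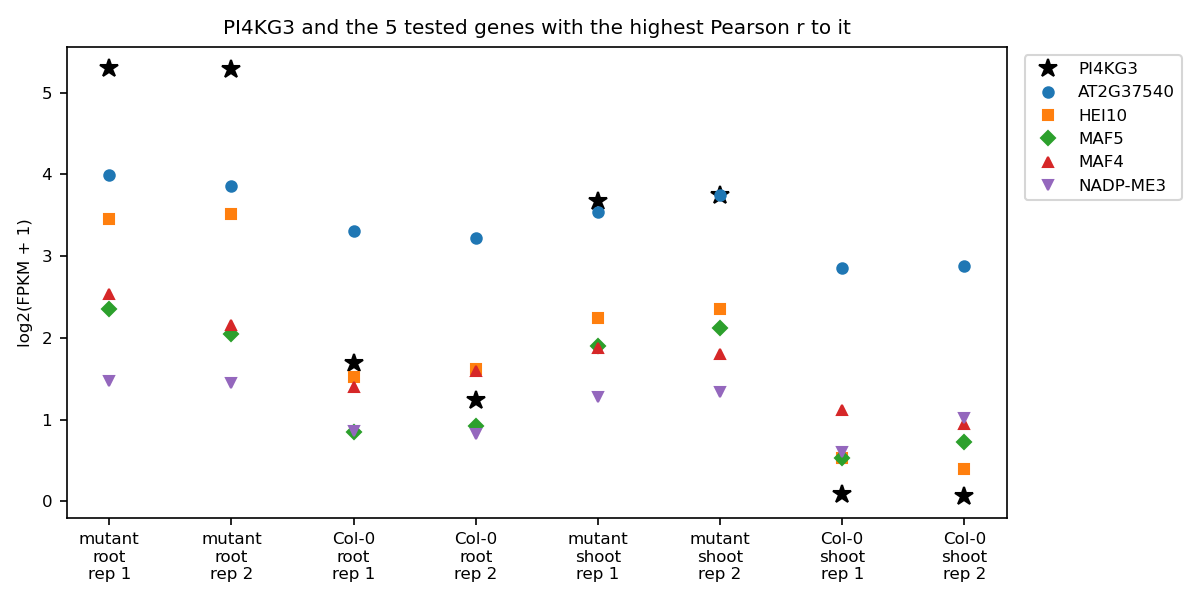
Level in log2(FPKM + 1) of PI4KG3 (stars) and of the 5 tested genes with the highest Pearson r to it (0.913 to 0.982), by library. All 6 genes are higher in both mutant root libraries than in Col-0 root and higher in both mutant shoot libraries than in Col-0 shoot, and PI4KG3 spans the widest range.

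Other phosphoinositide genes, 7 diacylglycerol kinases and 3 reported partners of gamma PI4Ks were followed in lists of 66 loci in all. These are called the phosphoinositide lists here, and 58 of the loci were tested. In root 0 of 58 were called between the genotypes, against 0.01% of all genes, and 51 of 58 had a positive difference (47.9% of all genes). The median was 0.11, against -0.0049 over all genes. Root libraries too deviated with gene span, by genotype (Spearman rho -0.28 and -0.26 in Col-0 root, 0.21 and 0.33 in mutant root). With the span trend removed the root median of the 58 was 0.049. In shoot 1 of 58 was called, against 1.02% of all genes, and 56 of 58 were positive, against 75.6% of all genes. The median was 0.83, against 0.31 over all genes. The called gene was IP5P1, an inositol polyphosphate 5-phosphatase, at 2.58 and 3.04 FPKM in mutant shoot, against 0.747 and 1.16 FPKM in Col-0 shoot (log2 difference 0.97, SE 0.16, adjusted p = 0.0495). The IP5P1 call was lost with a pseudocount of 0.1, no filter, rescaling, the replicate block or the span trend removed (adjusted p between 0.0546 and 0.0762), and with each tissue fitted alone (adjusted p = 0.333). It was also lost without any 1 of the root or mutant shoot libraries (adjusted p between 0.153 and 0.344). Without Col-0 shoot replicate 1 or without replicate 2 it was called, at 0.82 (adjusted p = 0.00461) or 1.12 (adjusted p = 6.62e-05). Leaving out replicate 1, 27 of the 58 were called, all higher, against 23.8% of all genes called higher. Leaving out replicate 2, 53 of the 58 were called higher, against 55.5% of all genes, and 1 lower. For the difference between tissues 0 of 58 were called, against 0% of all genes, with a median of -0.71 against -0.34 over all genes.

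Of the alpha and beta PI4Ks, 3 of 4 genes were tested. PI4KB1 was at 28.0 and 30.2 FPKM in mutant root, against 25.1 and 26.2 FPKM in Col-0 root, and at 16.4 and 18.2 FPKM in mutant shoot, against 2.62 and 12.0 FPKM in Col-0 shoot. PI4KA1 was at 17.8 and 23.1 FPKM in mutant root, against 15.7 and 17.2 FPKM in Col-0 root, and at 12.4 and 14.3 FPKM in mutant shoot, against 2.73 and 11.2 FPKM in Col-0 shoot. All 3, PI4KB2 included, were positive in both tissues and 0 were called in either (0.01% of all genes in root and 1.02% in shoot). In shoot the log2 differences were 1.41 for PI4KB1, 1.09 for PI4KA1 and 1.03 for PI4KB2, and these too depended on Col-0 shoot replicate 1. Without it they were 0.49 for PI4KB1, 0.23 for PI4KA1 and 0.49 for PI4KB2, against 0.61 for PI4KG4. With the span trend removed as well they were 0.20 for PI4KB1, -0.083 for PI4KA1 and 0.21 for PI4KB2. The loci of PI4KB1, PI4KA1 and PI4KB2 span 7471, 12108 and 7024 bases, against 1182 to 3024 bases for the 7 gamma relatives.

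By list, 0 genes were called in root in any of the 10 lists, against 0.01% of all genes. In shoot 1 of 7 inositol 5-phosphatases and 0 in the other 9 lists were called, against 1.02% of all genes. The shoot medians were 1.09 for the 3 tested alpha and beta PI4Ks, 1.26 for the 5 tested phosphatidylinositol 3-kinase and FAB1 genes, 1.12 for 8 SAC phosphatases, 0.92 for 7 inositol 5-phosphatases, 0.89 for 5 diacylglycerol kinases, 0.83 for 9 phosphatidylinositol phosphate 5-kinases, 0.67 for 8 subunits of the PI4K alpha complex, 0.53 for 8 phospholipases C and 0.40 for 2 phosphatidylinositol synthases. Of the diacylglycerol kinases, DGK1 was at 14.9 and 14.6 FPKM in mutant shoot, against 3.34 and 7.64 FPKM in Col-0 shoot (1.36, SE 0.30, adjusted p = 0.0663). The DGK1 difference was 0.86 without Col-0 shoot replicate 1. With the span trend removed it was 0.75 and DGK1 was called (limma, adjusted p = 0.028), in a fit that called more of all genes too. DGK1 was not called with a pseudocount of 0.1, no filter, rescaling, the replicate block or other moderation (adjusted p between 0.0589 and 0.0907). Nor was it called with each tissue fitted alone (adjusted p = 0.333). The 3 reported partners of gamma PI4Ks had a median of 0.29 in shoot. They were the proteasome receptor RPN10, at 45.1 and 41.9 FPKM in mutant shoot, against 54.2 and 43.8 FPKM in Col-0 shoot, the ubiquitin chain factor UFD1, at 29.5 and 27.0 FPKM in mutant shoot, against 21.2 and 24.9 FPKM in Col-0 shoot, and the transcription factor NAC078, at 27.5 and 28.0 FPKM in mutant shoot, against 12.1 and 23.2 FPKM in Col-0 shoot.

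Between tissues, 26 of 58 were called higher in root and 2 lower in the mutant, against 58.7% and 17.7% of all genes, and 51 of 58 higher and 1 lower in Col-0, against 72.1% and 15% of all genes. Some of the 58 passed the filter through root alone, among them PIP5K3, PLC5, PLC7 and PLC9. For such genes a call higher in root is partly set by the filter, which was the same for all genes. PLC4, a phospholipase C, was at 28.7 and 26.1 FPKM in mutant root and 3.12 and 3.01 FPKM in mutant shoot. PIP5K3, a phosphatidylinositol phosphate 5-kinase of root hairs, was at 3.18 and 2.68 FPKM in mutant root and was not listed in any shoot library. PLC8 ran the other way, at 1.09 and 1.07 FPKM in mutant root and 18.4 and 17.1 FPKM in mutant shoot, and was lower in root in both genotypes. NPGR1 was called lower in root in the mutant. The 3 partners RPN10, UFD1 and NAC078 were called higher in root than in shoot in both genotypes, as were PI4KG3, PI4KG5, PI4KG6, PI4KG7 and AT1G64460.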

How the data were processed

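RNA was measured in 8 libraries, 2 for each genotype in root and in shoot. Each library has a table of FPKM by gene, computed and deposited by the authors, and a gene absent from a table was taken as 0 and called not listed. An exact 0 can be a failed estimate. The build is TAIR10 per the submitters' processing notes, and the aligner, counting program and strand setting were not given in the sources used here. Starts are the deposited ones plus 1. Of the listed genes 25141, and all 8 kinases, were found in the RefSeq table of assembly TAIR10.1, used for names.

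Deposited FPKM plus 1 were taken to log2 and entered limma 3.58.1 (R 4.3.3), which fitted 4 groups at once (4 residual degrees of freedom, robust empirical Bayes with a mean trend) over genes with a mean of at least 1 FPKM in root or shoot, adjusted by the Benjamini-Hochberg method at 0.05. The script was tested on simulated data. Alternatives were a pseudocount of 0.1, no filter, rescaling of the libraries of a tissue by median ratios, a lowess trend with gene span removed (fraction 0.3), the replicate block, other moderation, each tissue alone and each library left out. Combined settings without Col-0 shoot replicate 1 were added after seeing the data.

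The members, the lists and the tests were chosen with earlier results of these data known. Genes named were the 8 kinases, the mutated genes, 5 listed genes on each side of PI4KG3 with those sharing its locus, the 5 tested genes with the highest r, and from each list up to 4 that passed or else the 2 with the largest change.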

Additional observations from a re-analysis of the deposited data

How the results depend on the processing

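With 2 libraries a group, FPKM without counts and Col-0 shoot replicate 1 apart from the rest, the size and the calls of the shoot differences of the relatives and of the listed genes are not settled here. Of the 6 relatives 0 were called in root under every alternative run. In shoot 0 were called except without Col-0 shoot replicate 1 (1), with rescaling or span removal as well (2 each), and over all libraries left out in turn (0 to 6). For the difference between tissues this range was 0 to 6. In the mutant, tissue calls numbered 3 with a pseudocount of 0.1 or no filter, against 5 in the main fit, where 58.7% of all genes were called higher in root. They also changed with a library left out, as calls over all genes did.

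The call in the phosphoinositide lists in shoot was 0 with a pseudocount of 0.1, no filter, rescaling, the replicate block or each tissue alone, 0 to 54 with a library left out, and 5 and 4 with rescaling or span removal without Col-0 shoot replicate 1. Their interaction calls ran from 0 to 51, with 1 under that span setting, and their mutant tissue calls from 21 to 54, with 54 under rescaling without that library.

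Signs turned as follows. In root, span removal gave 0.064 for AT1G64460 and -0.020 for DGK1, with or without Col-0 shoot replicate 1. Root values with a library left out were -0.19 to 0.26 for PI4KG1, -0.16 to 0.10 for AT1G64460, -0.041 to 0.12 for PI4KG4, -0.052 to 0.036 for PI4KG5, -0.078 to 0.11 for PI4KG6 and -0.050 to 0.12 for DGK1. In shoot PI4KG7 was -0.13 with rescaling, -0.15 with span removal and -0.23 to 0.86 with a library left out. Without Col-0 shoot replicate 1, rescaling or span removal gave -0.46 and -0.44 for PI4KG7, -0.047 and -0.033 for PI4KG5 and -0.14 and -0.12 for PI4KG6, and span removal gave -0.083 for PI4KA1. The root minus shoot difference of the genotype effect was -1.92 for PI4KG3 with a pseudocount of 0.1 and -0.031 to 0.42 with a library left out. For PI4KG7 it was 0.036 with rescaling and 0.037 with span removal, 0.37 and 0.33 with these without Col-0 shoot replicate 1, and -0.96 to 0.13 with a library left out. For PI4KG5 it was 0.045 and 0.011, and for PI4KG6 0.16 and 0.12, under the same 2 combined settings. The mutant tissue difference of PI4KG1 ran from -0.039 to 0.41. The cause was not tested.

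Over all genes, calls in root (2) were 1 with a pseudocount of 0.1 or the block, 9 with no filter, 8 with each tissue alone and 0 to 17 with a library left out. In shoot (204) they were 2 with a pseudocount of 0.1, 17 with no filter, 17 with rescaling, 2 with the block, 353 with other moderation, 0 with each tissue alone, 1017 with span removal (688 higher and 329 lower) and 0 to 13202 with a library left out. The 2 combined settings gave 16 and 14 in root, 2695 and 2093 in shoot, and 522 and 518 for the difference between tissues, where the main count was 0 and leaving out a library gave 0 to 11547. Same-numbered libraries deviated together with r of -0.11 to 0.15 over the 6 pairs of groups. From 2 libraries a group, these values cannot decide whether same-numbered libraries were grown or processed together. With the replicate block the kinases' calls were 0, 0, 0, 5 and 7, as without it.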
